A study of Homo sapiens with 24 samples.

Results

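The classical cadherins and unclustered protocadherins of rhabdomyosarcoma cells were followed after 5 days with a DNA methyltransferase inhibitor, a kinase inhibitor or both. The genes were taken by name from 4 deposited tables: every CDH or PCDH symbol followed by a number, with PCDH11X kept and CDH1 and CDH13 left out. Set with earlier results of these data known, the rule used names alone and found 30 of 29639 genes. They comprise 4 type I and 12 type II classical cadherins, 4 delta-1, 5 delta-2 and 2 other unclustered protocadherins, and 3 cadherins (CDH17, CDH23 and CDH26) that share the name and extracellular repeats but are not classical cadherins.

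Cadherins are calcium-dependent adhesion molecules whose extracellular repeats bind repeats on the neighbouring cell. Classical cadherins are tied to actin by beta- and p120-catenin on their cytoplasmic tails, and the type present helps to set which cells adhere; N-cadherin and M-cadherin join myoblasts as they align and fuse. Protocadherins lack the catenin-binding tail: delta-1 members carry a site for protein phosphatase 1 alpha, and delta-2 members bind the WAVE actin regulator. Promoters of several of these genes, PCDH10 and PCDH17 among them, are often methylated in carcinomas.

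The study cultured Rh30, an alveolar rhabdomyosarcoma line, and RD, an embryonal one. Each line received DMSO, SGI-110 (guadecitabine, a dinucleotide of decitabine and deoxyguanosine), dasatinib (an inhibitor of SRC family, ABL, KIT and PDGF receptor kinases) or both drugs. Each of the 8 groups had 3 biological replicates, 24 libraries in all, and SGI-110 was used at 0.5 µM; the labels do not give dasatinib a separate dose. Neither line was engineered, DMSO is the vehicle of both drugs, and each line derives from a single tumour. Messenger RNA was sequenced from stranded libraries as pairs of 75 bases.

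The tables hold comparisons, not values per library, so the depth per sample is unknown, and no spread between single libraries can be shown. The standard errors have the size of 3 libraries per treatment, so each fold change is read as that of 1 cell line, which the tables do not name. The mean normalised count of a gene is over all 24 libraries, of both lines. It is the number of reads behind a gene and is not corrected for length. A gene was called past the threshold at an adjusted p under 0.05 over all genes tested. A treatment is said to have no measurable level of a gene where its standard error reached 1.17 log2, the counting error of 3 libraries at 0.5 reads each. Libraries that vary widely can reach the same error at a higher level, and fold changes that involve such a group are left out. In cultures measured in bulk, a change in the share of cells that express a gene and a change in RNA per cell cannot be told apart. The markers of the skeletal muscle lineage were present: the mean normalised counts were 5180 for MYOD1, 5680 for MYOG and 6850 for DES.

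The promoters of 6 genes are printed as examples, and methylation in them was not measured. Of the risers after SGI-110, the 3 with the lowest adjusted p that had a promoter entry are shown. The others are the 2 fallers with an entry and the gene with the lowest adjusted p for dasatinib on top of SGI-110. SGI-110 acts on cytosine methylation at CpG dinucleotides, and each CpG is in capitals. The windows are those of RefSeq on GRCh38.p14, 250 bases before to 50 bases after a transcription start, written 5′ to 3′ on the gene's strand. Where a gene had several starts, the window with the most CpG is shown.
PCDH17, chr13:57631494-57631793, plus strand, 11 CpG: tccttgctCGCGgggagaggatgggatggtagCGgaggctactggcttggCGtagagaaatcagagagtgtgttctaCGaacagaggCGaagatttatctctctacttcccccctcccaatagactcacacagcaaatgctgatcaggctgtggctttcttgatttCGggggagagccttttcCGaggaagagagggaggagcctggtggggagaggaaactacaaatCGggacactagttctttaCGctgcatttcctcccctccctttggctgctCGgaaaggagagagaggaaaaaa
CDH18, chr5:19988151-19988450, minus strand, 18 CpG: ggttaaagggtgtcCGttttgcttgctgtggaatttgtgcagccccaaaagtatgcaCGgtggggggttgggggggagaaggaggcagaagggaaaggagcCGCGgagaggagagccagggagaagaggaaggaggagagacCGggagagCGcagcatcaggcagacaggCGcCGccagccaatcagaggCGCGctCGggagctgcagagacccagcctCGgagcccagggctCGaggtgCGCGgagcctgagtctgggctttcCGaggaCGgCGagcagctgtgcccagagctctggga
CDH20, chr18:61333180-61333479, plus strand, 13 CpG: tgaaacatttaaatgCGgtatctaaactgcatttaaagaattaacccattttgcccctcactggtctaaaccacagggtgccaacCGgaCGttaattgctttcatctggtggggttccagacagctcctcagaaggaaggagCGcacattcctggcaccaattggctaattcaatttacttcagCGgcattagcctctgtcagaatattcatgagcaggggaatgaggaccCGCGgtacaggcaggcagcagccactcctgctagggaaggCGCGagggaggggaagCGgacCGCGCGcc
CDH7, chr18:65750762-65751061, plus strand, 41 CpG: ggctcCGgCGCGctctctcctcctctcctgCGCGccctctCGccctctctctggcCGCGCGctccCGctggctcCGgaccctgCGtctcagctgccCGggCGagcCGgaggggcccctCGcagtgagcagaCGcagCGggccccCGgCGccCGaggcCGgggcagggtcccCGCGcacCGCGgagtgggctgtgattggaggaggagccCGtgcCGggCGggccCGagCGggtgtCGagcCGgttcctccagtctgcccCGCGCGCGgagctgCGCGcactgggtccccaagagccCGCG
CDH2, chr18:28177081-28177380, minus strand, 23 CpG: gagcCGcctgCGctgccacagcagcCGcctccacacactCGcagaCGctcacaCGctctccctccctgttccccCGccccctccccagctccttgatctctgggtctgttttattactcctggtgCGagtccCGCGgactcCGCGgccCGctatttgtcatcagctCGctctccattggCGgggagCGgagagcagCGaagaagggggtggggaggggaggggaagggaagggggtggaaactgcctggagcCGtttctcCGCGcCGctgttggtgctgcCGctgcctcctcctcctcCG
PCDH7, chr4:30720119-30720418, plus strand, 16 CpG: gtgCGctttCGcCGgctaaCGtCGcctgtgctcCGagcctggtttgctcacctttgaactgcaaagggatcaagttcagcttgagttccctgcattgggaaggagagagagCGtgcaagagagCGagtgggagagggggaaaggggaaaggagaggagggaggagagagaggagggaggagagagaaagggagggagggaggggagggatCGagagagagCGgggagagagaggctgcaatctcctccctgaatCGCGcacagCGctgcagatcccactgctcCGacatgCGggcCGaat
The windows of the 3 risers held 11 to 18 CpG, and those of the 2 fallers held 23 and 41. Of all 35116 RefSeq windows, 54.7% hold at least the 11 CpG of PCDH17, 44.5% at least the 18 of CDH18 and 51.7% at least the 13 of CDH20. The corresponding shares are 6.69% for CDH7, 35.8% for CDH2 and 47.5% for PCDH7. By this count the risers' windows are near the middle of all windows, and that of CDH7 is among the CpG-richest. The richest window of a gene is set here against all windows, not against the richest of each gene. Other windows hold 7 CpG for CDH7, 5 and 3 for CDH18 and 4 for CDH2. Which start these cells use is unknown. The window of PCDH17 lies inside the gene, and none covers the gene's RefSeq start at base 57630108. CDH15 and CDH6, which also fell, had no window.

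SGI-110 raised 15 of the 30 genes (50%) and lowered 4 (13.3%) against DMSO in the authors' deposited table. Over all genes tested, 30.4% rose and 17.1% fell. The median log2 fold change was 0.62 for the 21 members with a level in both groups and 0.04 over all 21346 such genes. It was 0.26 over those members whose mean count reached 50. That count is over both lines, and CDH4, CDH26 and PCDH18 among them had most of their reads in the other line. The changes ran from -0.95 for CDH7 to 7.26 for PCDH17. By class, 8 of 12 type II cadherins rose and 2 fell, 1 of 4 type I cadherins rose and 2 fell, and 3 of 5 delta-2 protocadherins rose. One gene rose in each of the other 3 classes, out of 4 delta-1 protocadherins, 3 other cadherins and 2 other protocadherins, and none fell there.

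**Figure D1:**
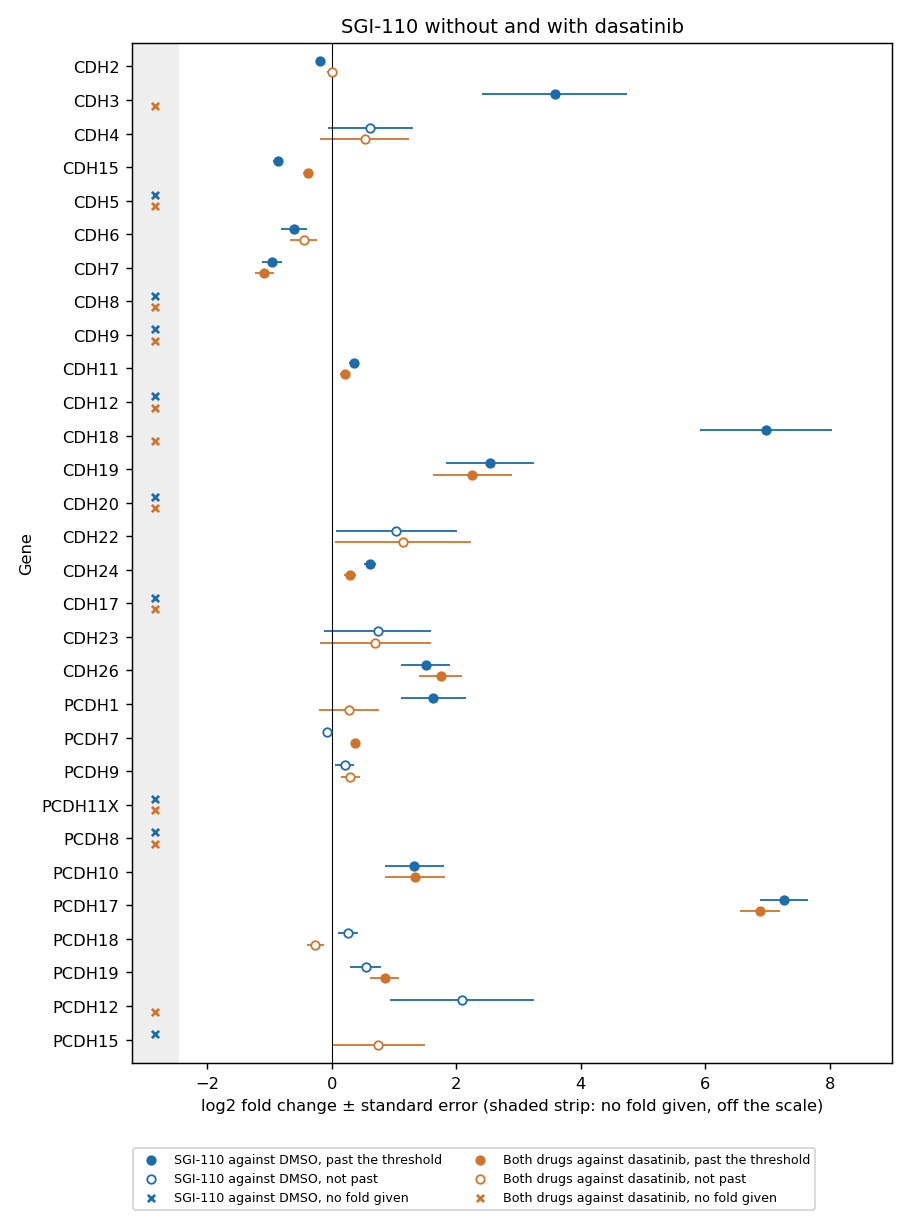
The log2 fold change with its standard error is plotted for each of the 30 genes, for SGI-110 against DMSO (blue) and for both drugs against dasatinib (orange). Filled points passed an adjusted p of 0.05, and crosses in the shaded strip stand off the scale for comparisons with no measurable level in 1 of the groups. PCDH17 and CDH18 lie farthest to the right, and CDH7 and CDH15 lie to the left of 0.

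PCDH17 had the lowest adjusted p of the 30 genes. It lies at chr13:57630108-57729311 and encodes a delta-2 protocadherin of the brain. With SGI-110 it rose by 7.26 ± 0.38 log2, 153-fold, in the authors' deposited table (adjusted p = 1.2e-77). Dasatinib alone gave 0.36 ± 0.49 log2 there (adjusted p = 0.66), and both drugs gave 7.23 ± 0.38 log2 against DMSO (adjusted p = 4.4e-77). Its level therefore separated the groups by whether SGI-110 was present.

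CDH18, a type II cadherin of the central nervous system at chr5:19471296-20575713, had the second largest fold. It rose by 6.97 ± 1.06 log2 with SGI-110 in the authors' deposited table, 125-fold (adjusted p = 3.3e-10). With both drugs the deposited change against DMSO was 6.47 ± 1.06 log2 (adjusted p = 6.6e-09). Its DMSO group had a standard error of 1.039 log2, just under the limit of 1.17, so the size of the fold is poorly fixed. With dasatinib alone it had no measurable level.

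Among the other type II cadherins, CDH19 of the Schwann cell lineage rose by 2.54 ± 0.71 log2 in the authors' deposited table (adjusted p = 0.0011). CDH24, which binds alpha- and beta-catenin, rose by 0.62 ± 0.10 log2 there (adjusted p = 2.1e-08). CDH11, the cadherin of osteoblasts and mesenchyme, rose by 0.36 ± 0.08 log2 in the same deposited table of the authors (adjusted p = 1.3e-05). CDH24 and CDH11 had mean normalised counts of 652.3 and 515, and their changes were small beside those of the near-silent genes.

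CDH7 and CDH6 were the type II cadherins that fell. CDH7, a cadherin of the brain and, in chick, of migrating neural crest, changed by -0.95 ± 0.16 log2 in the authors' deposited table, to 0.518 of its DMSO level (adjusted p = 7.5e-09). CDH6, of kidney, changed by -0.60 ± 0.21 log2 there (adjusted p = 0.011). CDH7 lies on chromosome 18 between CDH20 and CDH19, both of which rose.

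The type I cadherins that muscle cells use fell. CDH15, M-cadherin of myoblasts and satellite cells at chr16:89171748-89195492, had the most reads of the family, a mean normalised count of 4698. It fell to 0.552 of its DMSO level in the authors' deposited table, -0.86 ± 0.08 log2 (adjusted p = 2.7e-28). CDH2, N-cadherin, changed by -0.18 ± 0.07 log2 there (adjusted p = 0.024). CDH3, P-cadherin of epithelia, rose by 3.58 ± 1.16 log2 in the authors' deposited table (adjusted p = 0.0054), from a DMSO group whose standard error was 1.078 log2. CDH4, R-cadherin, gave 0.62 ± 0.68 log2 in that table of the authors (adjusted p = 0.49). Of 6 muscle lineage markers, 3 rose and 1 fell with SGI-110, against 30.4% and 17.1% of all genes tested. Among these markers the deposited changes were 0.46 ± 0.07 log2 for MYOG and -0.29 ± 0.09 log2 for DES. Their part in the fall of CDH15 was not tested.

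PCDH10, PCDH1 and CDH26 also rose from measurable DMSO levels. PCDH10, a delta-2 member that binds the WAVE complex, rose by 1.33 ± 0.48 log2 in the authors' deposited table (adjusted p = 0.013). PCDH1, a delta-1 member of airway epithelium, rose by 1.63 ± 0.52 log2 there (adjusted p = 0.0049). CDH26, of the gastrointestinal epithelium, rose by 1.51 ± 0.39 log2 in the authors' deposited table (adjusted p = 0.0003).

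Another 6 genes passed the threshold with no measurable level in DMSO, so no fold is given. They were VE-cadherin CDH5 of endothelium (adjusted p = 4.2e-06 by the authors' deposited table), the brain type II cadherins CDH20 (5.4e-05), CDH8 (0.016) and CDH12 (0.046), the delta-2 protocadherin PCDH8 (0.0012) and PCDH15 of the inner-ear tip link (0.013). All 6 were higher with SGI-110 and measurable there. Across the family, 9 genes had no measurable level in DMSO, 11 with dasatinib, and 1 each with SGI-110 and with both drugs. Over all genes, 7960 had no measurable level in DMSO, and 2648 of these rose with SGI-110. The count over all genes was taken for DMSO only, so nothing particular to the family can be read from the differences between treatments. Of the 15 risers, 7 had a mean normalised count under 10, and the call rests on few reads for these. The same holds for PCDH15, whose mean count of 635.3 lay almost wholly in the other line by the limits on its level given with the shares of both lines. The call of CDH12 was lost when fold changes were centred on the median of all genes.

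The remaining 11 genes did not pass the threshold with SGI-110. CDH4, CDH22, CDH23, PCDH7, PCDH9, PCDH12, PCDH18 and PCDH19 were measurable in both groups, with log2 changes from -0.07 for PCDH7 to 2.09 for PCDH12 in the authors' deposited table. CDH9, CDH17 and PCDH11X had no measurable level in DMSO. Reads of PCDH11X can also come from its near-identical copy on the Y chromosome, and its mean normalised count of 0.6425 was the lowest of the family. For PCDH19 the deposited adjusted p of the authors was 0.06, just outside the threshold, and for CDH12 it was 0.046, just inside.

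Markers of other cell types were counted beside examples of members of like cell types that rose with SGI-110. Not every member of a like cell type rose: CDH7 of the brain fell, and PCDH12 of endothelium did not pass the threshold. Over all genes tested, 30.4% rose with SGI-110 and 17.1% fell. Of 9 endothelial markers 7 rose with SGI-110 beside CDH5, and PECAM1 changed by 1.67 ± 0.08 log2 in the authors' deposited table, while KDR and EMCN had no measurable level in DMSO. Of 9 epithelial markers 7 rose beside CDH3 and CDH26, and KRT8, KRT18, KRT19, EPCAM, CLDN3, CLDN7 and GRHL2 had no measurable level in DMSO. Of 9 neural markers 5 rose and 1 fell beside CDH8, CDH12, CDH18 and CDH20. Of 5 glial and Schwann cell markers 4 rose beside CDH19, with SOX10 and GFAP not measurable in DMSO. Of 8 fibroblast markers 6 rose and 1 fell beside CDH11. Summed levels of these lists per group need values per library, and their part in the results was not tested.

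Genes that work with the cadherins did not move as a block with SGI-110. The counts below stand against 30.4% higher and 17.1% lower over all genes tested. Of 11 catenins and actin linkers, 4 rose and 3 fell: p120-catenin CTNND1 changed by 0.61 ± 0.04 log2, plakoglobin JUP by 5.29 ± 0.56 log2 and PKP4 by -0.47 ± 0.04 log2 in the authors' deposited table. Of 5 nectins, the adhesion molecules that seed cadherin junctions, 2 rose and 2 fell. Of 6 desmosomal cadherins 3 rose (DSG2, DSC2 and DSG3), each with no measurable level in DMSO. Of 17 atypical cadherins such as the FAT, Dachsous and flamingo families, 11 rose and 2 fell, among them FAT3 at 3.05 ± 0.23 log2 and DCHS1 at 3.98 ± 0.35 log2 in the authors' deposited table.

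Regulators of cadherins were split. Beside them, 30.4% of all genes tested rose with SGI-110 and 17.1% fell. Among 6 transcription factors that repress cadherin genes, SNAI1 changed by 1.22 ± 0.13 log2 in the authors' deposited table, and TWIST1 rose from no measurable level. ZEB1 and ZEB2 fell, by 0.18 ± 0.06 and 0.22 ± 0.06 log2 there. Of 9 WAVE complex genes, the partners of delta-2 protocadherins, 2 rose and 5 fell. Of 6 proteases that cut cadherins at the membrane, none rose and 4 fell: ADAM10 changed by -0.86 ± 0.07 log2 (adjusted p = 4.5e-34) and the gamma-secretase subunit NCSTN by -0.87 ± 0.07 log2 (adjusted p = 2.2e-37) in the authors' deposited table.

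Dasatinib alone changed fewer members. By the authors' deposited table, 4 of the 23 tested (17.4%) rose and 2 (8.7%) fell, against 17.8% and 13.2% over all genes tested, so both shares were close to or below those of all genes. The median log2 change was 0.16 over 18 measured members and -0.00 over all genes. The delta-2 protocadherin PCDH18 rose by 0.84 ± 0.16 log2 there (adjusted p = 8.9e-07), 1.79-fold, the largest measured rise past the threshold. CDH11 rose by 0.38 ± 0.08 log2 (adjusted p = 1e-05) and PCDH7, a delta-1 protocadherin, by 0.25 ± 0.06 log2 (adjusted p = 5.4e-05) in the authors' deposited table. PCDH15 passed with no measurable DMSO level (adjusted p = 0.046 by the authors' deposited table), a call lost when the adjustment ran over all genes with a p. Both muscle cadherins fell: CDH15 changed by -0.50 ± 0.08 log2 (adjusted p = 1.1e-09) and CDH2 by -0.25 ± 0.07 log2 (adjusted p = 0.0032) in the authors' deposited table. Of the 6 muscle markers 3 fell with dasatinib and none rose, among them MYOG at -0.41 ± 0.07 log2 in that deposited table of the authors, and their part in the fall of CDH15 was not tested. Of the 9 WAVE complex genes 4 rose with dasatinib and none fell.

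**Figure D2:**
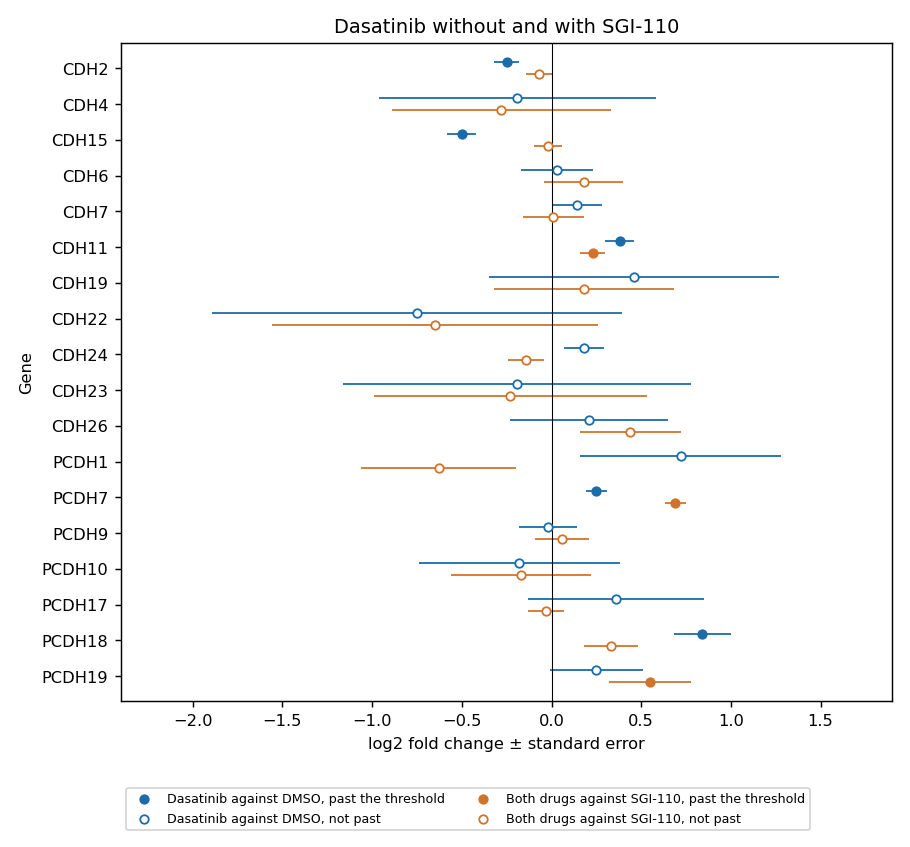
The log2 fold change with its standard error is plotted for the 18 genes measured in all 4 treatments, for dasatinib against DMSO (blue) and for both drugs against SGI-110 (orange). Filled points passed an adjusted p of 0.05. CDH15 lies at -0.50 without and -0.02 with SGI-110, and PCDH7 moves from 0.25 to 0.69.

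When dasatinib was given on top of SGI-110, 3 of the 25 members tested (12%) rose and none fell in the authors' deposited table, against 14.2% and 17% of all genes tested. By the deposited Wald test PCDH7 rose by 0.69 ± 0.06 log2, 1.61-fold (adjusted p = 2.5e-33), CDH11 by 0.23 ± 0.07 log2 (adjusted p = 0.0084) and PCDH19 by 0.55 ± 0.23 log2 (adjusted p = 0.049). The call of PCDH19 was lost when the adjustment ran over all genes with a p. PCDH7 and CDH11 rose with dasatinib both without and with SGI-110, in comparisons that share no library. PCDH19 is a delta-2 protocadherin whose loss causes an epilepsy of females. CDH15 changed by -0.02 ± 0.08 log2 and CDH2 by -0.07 ± 0.07 log2 in the authors' deposited table (adjusted p = 0.89 and 0.55).

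The interaction, computed here from the deposited values, asks whether the effect of dasatinib differed with and without SGI-110. It passed the threshold for 2 of 30 genes (6.67%), both in the positive direction, and for none in the negative one, against 6.09% and 8.49% of all genes. For PCDH7 the effect of dasatinib was 0.44 ± 0.08 log2 higher with SGI-110 (adjusted p = 1.1e-06, two-sided Wald test). For CDH15 it was 0.48 ± 0.11 log2 higher (adjusted p = 0.00017), so the fall seen with dasatinib alone was not seen on top of SGI-110. PCDH18 gave -0.52 ± 0.22 log2 (adjusted p = 0.098) and CDH24 -0.31 ± 0.15 log2 (adjusted p = 0.16), both past an unadjusted p of 0.05 only; with PCDH7 and CDH15, 4 of the 30 genes were past that unadjusted p.

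Adding SGI-110 to dasatinib was compared in the same way, against libraries that share none with SGI-110 against DMSO. Of the 30 genes 16 rose (53.3%) and 2 fell (6.67%), against 26.6% and 16.5% of all genes, and the median log2 change was 0.37 over 19 measured members and 0.05 over all genes. In both comparisons 13 genes were higher and 2 lower, and none passed in opposite directions. The overlap is given for members only, without the share over all genes, so nothing particular to the family can be read from it. PCDH17 rose by 6.87 ± 0.32 log2 (adjusted p = 9.3e-99), CDH19 by 2.26 ± 0.63 log2 (adjusted p = 0.0012), CDH26 by 1.75 ± 0.35 log2 (adjusted p = 2.4e-06) and PCDH10 by 1.34 ± 0.48 log2 (adjusted p = 0.016). CDH7 again fell, by 1.08 ± 0.15 log2 (adjusted p = 2.7e-11). CDH15 fell by 0.38 ± 0.08 log2 (adjusted p = 2.8e-06), less than without dasatinib by the interaction given above. PCDH7 rose by 0.37 ± 0.06 log2 (adjusted p = 1.6e-10) and PCDH19 by 0.85 ± 0.23 log2 (adjusted p = 0.00097), neither of which passed with SGI-110 alone. For PCDH19 the 2 effects of SGI-110 did not differ past the threshold: its interaction was 0.30 ± 0.34 log2 (adjusted p = 0.77, two-sided Wald test).

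A further 8 genes are without a fold here, since they rose over dasatinib from no measurable level: CDH3, CDH5, CDH8, CDH12, CDH18, CDH20, PCDH8 and PCDH12. Their adjusted p ran from 3.6e-09 for CDH18 to 0.042 for CDH12. PCDH12, called VE-cadherin-2, is a protocadherin of endothelium and trophoblast. Its DMSO group had a standard error of 1.046 log2, and its change with SGI-110 alone was 2.09 ± 1.16 log2 in the authors' deposited table (adjusted p = 0.13).

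Against DMSO, both drugs together raised 17 of the 30 genes (56.7%) and lowered 3 (10%) in the authors' deposited table, against 29.8% and 17.6% of all genes tested. This comparison shares its controls with each drug alone, and its values are given beside theirs. All 5 delta-2 protocadherins were past the threshold: PCDH17, PCDH8, PCDH10, PCDH18 and PCDH19, of which PCDH10 was lost on centring. By the authors' deposited table PCDH18 was at 0.58 ± 0.16 log2 with both drugs, at 0.26 ± 0.16 with SGI-110 and at 0.84 ± 0.16 with dasatinib. PCDH19 was at 1.10 ± 0.25, 0.55 ± 0.25 and 0.25 ± 0.26 log2 in that order in the authors' deposited table. CDH15 was at -0.88 ± 0.08, -0.86 ± 0.08 and -0.50 ± 0.08 log2, and CDH11 at 0.59 ± 0.08, 0.36 ± 0.08 and 0.38 ± 0.08 log2, in the same deposited tables of the authors. PCDH7 was at 0.62 ± 0.06 log2 with both drugs, against -0.07 ± 0.06 with SGI-110 and 0.25 ± 0.06 with dasatinib in the authors' deposited table.

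Standard errors also set limits on the level itself in the line of the fold changes. With 1 dispersion per gene, the difference in error between treatments bounds the count per library in each. This calculation was added after the data had been seen. It was applied to the 13 genes whose error variance differed at least 1.5 times between treatments. The ranges carry no error of the fold change. PCDH17 had 4.86 to 5.03 counts per library in DMSO and 6.26 to 6.47 with dasatinib. With SGI-110 it had 745 to 771, and with both drugs 731 to 756. CDH18 went from 0.643 to 0.668 counts in DMSO up to 80.3 to 83.5 with SGI-110. Both genes were thus near silence without SGI-110 and well read with it.

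The ranges of other genes were lower. CDH19 had 1.81 to 2.68 counts in DMSO and 10.6 to 15.7 with SGI-110. CDH3 had 0.597 to 0.715 and 7.16 to 8.57, and PCDH12, which did not pass with SGI-110, had 0.634 to 0.77 and 2.7 to 3.28. CDH26 had 6.44 to 9.5 counts in DMSO, 18.3 to 27.1 with SGI-110 and 25 to 36.8 with both drugs. PCDH10 had 4.48 to 8.47 and 11.3 to 21.3, and PCDH1 3.63 to 6.33 and 11.2 to 19.6. PCDH18 had 45.6 to 119 in DMSO and 81.8 to 214 with dasatinib. The ranges of 1 gene move together, since each is the same level carried over by the fold change, so an overlap between treatments is no test of their difference.

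**Figure D3:**
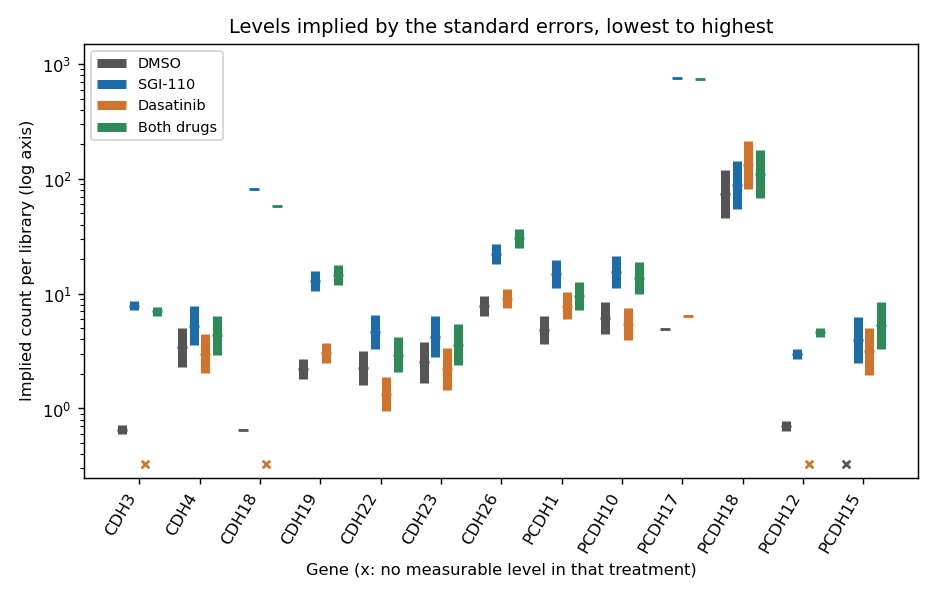
For each of 13 genes the vertical bars span the lowest to the highest count per library (log axis) that the standard errors allow in DMSO, SGI-110, dasatinib and both drugs; a cross at the foot marks a treatment with no measurable level. PCDH17 and CDH18 lie low without SGI-110 and high with it, in narrow ranges.

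Set against the mean over both lines, these limits give the share of a gene's normalised counts that the compared line held. That line held 92.3% to 95.4% of all counts of PCDH17, 92.3% to 96.3% of CDH18 and 61.2% to 90.6% of CDH19. It held 0.362% to 0.79% of CDH4 and 0.153% to 0.398% of PCDH15, which puts nearly all of their reads in the other line. The share was 7.18% to 9.2% for PCDH12, 14.1% to 20.8% for CDH26, 9.16% to 24% for PCDH18 and 10.3% to 23.5% for CDH23. Over 6047 genes the median limits were 34.7% and 68.3%, and 0.132% of those genes had an upper limit under 1%, as CDH4 and PCDH15 did. The mean normalised counts of 374.4 for CDH4 and 635.3 for PCDH15 are therefore not levels of the line in which the fold changes were measured.

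**Figure D4:**
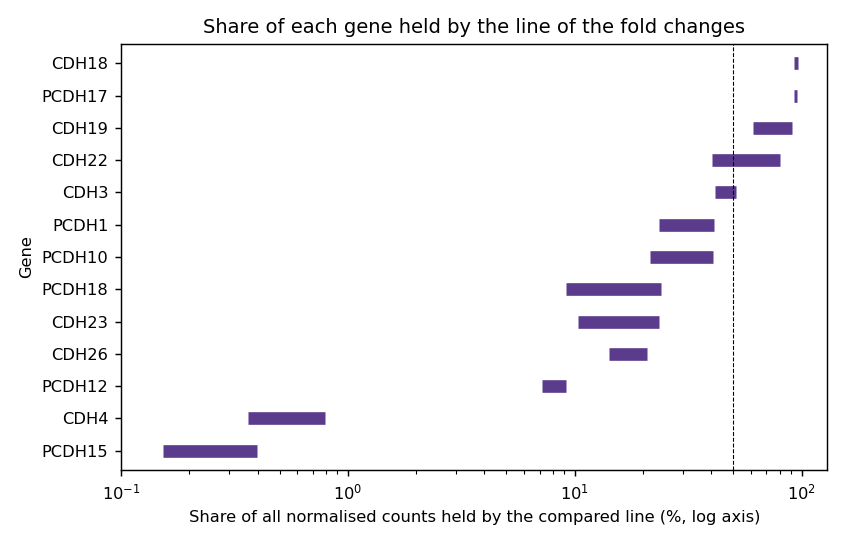
Horizontal bars span the lowest to the highest share (percent, log axis) of each gene's normalised counts over all 24 libraries that the line of the fold changes held, for 13 genes; the dashed line marks 50%. CDH18 and PCDH17 lie between 92.3% and 96.3%, and CDH4 and PCDH15 below 1%.

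Promoter CpG content was compared over the family. RefSeq windows were found for 21 of the 30 genes, 34 windows in all. Their median was 10 CpG (range 1 to 43), against 14 (0 to 77) over all windows. For PCDH17, PCDH1 and CDH4 every window lay inside the gene, and none covered its outermost RefSeq start. A window with over 55% G and C and over 0.6 of the CpG number that its base composition predicts was called dense. This held for 10 of 34 member windows (29.4%) and for 44% of all. Taking the CpG-richest window of each gene, the 10 risers with a window, of 15 in all, had a median of 13 CpG (3 to 24) and 3 dense windows. The 9 genes with a window that were not past the threshold had a median of 16 (5 to 43) and 4 dense windows. The 2 fallers with a window, CDH2 and CDH7, had 23 and 41. No window was found for the fallers CDH6 and CDH15 or for the risers CDH3, CDH5, CDH11, CDH24 and PCDH10, so risers and fallers are compared in part only. The dinucleotide searched was CG, which reads the same on both strands. No methylation was measured, and the count of CpG in a window says nothing of how many were methylated.

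**Figure D5:**
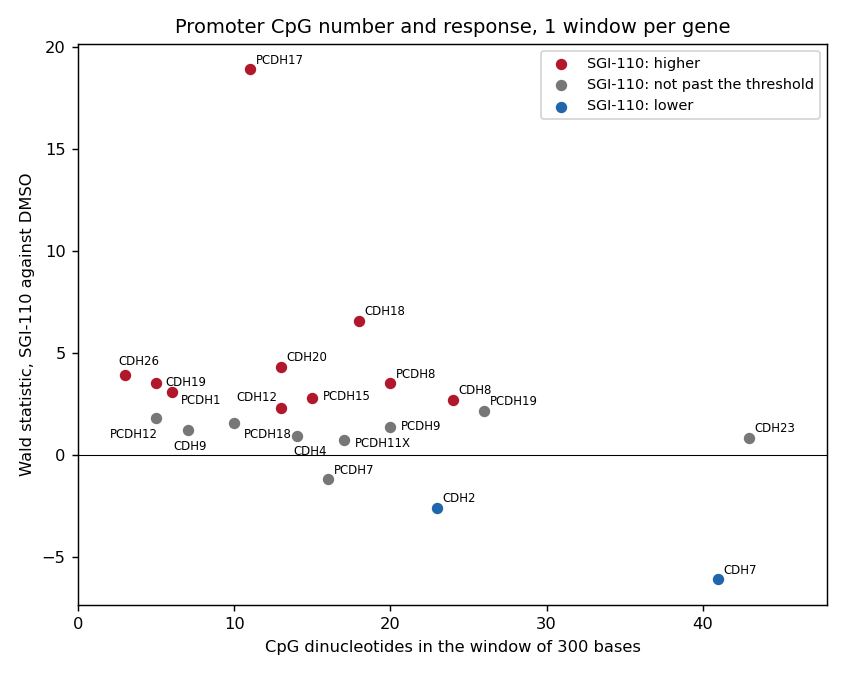
Each point is 1 gene with a RefSeq promoter, with the number of CpG in its CpG-richest window of 300 bases against the deposited Wald statistic (no unit) for SGI-110 against DMSO. The risers shown span 3 to 24 CpG, and CDH2 and CDH7 are the 2 plotted genes that fell. Genes without a window are not shown, among them CDH6 and CDH15, which also fell.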

How the data were processed

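Poly(A)-selected RNA of Rh30 and RD cultures was sequenced from 24 libraries in 8 groups of 3. For the authors' own steps, the submitters' processing notes name the GRCh38 build, DESeq, DESeq2 1.16.1, featureCounts 1.5.1, HISAT2 2.1.0 and Trim Galore 0.4.2, with no roles. Not given in the sources used here are the model formula, the line compared, the counting's strand setting and any filter. The 4 tables of 29639 genes cover SGI-110, dasatinib and both drugs against DMSO, and both drugs against SGI-110. The signal deposited by the authors is the mean normalised count per gene, identical in the 4 tables. The deposited scores are the Wald statistic of the authors and the standard error of its log2 fold. The p-value and its Benjamini-Hochberg adjusted value are as the authors deposited them. The tables give no value per library, so each sample's depth is unknown and the deposited errors carry the precision. The labels call the replicates biological triplicates and say nothing further of separate cultures.

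The log2 fold change was taken as the Wald statistic times its standard error. The variance of each treatment was solved from the deposited standard errors; for 1 gene it came out negative. From these, both drugs against dasatinib and the interaction were tested by a two-sided Wald test with Benjamini-Hochberg adjustment over 29638 genes. This assumes that the dasatinib table comes from the same fit as the other 3. On simulated data the interaction test found 65.5% and 95.5% of changes of 0.5 and 1 log2 in genes with a mean count of at least 100, among 29638 genes. Limits on levels were computed with 1 dispersion per gene: for 0.298% of 6047 genes the lower share exceeded 100%. Python 3.11.15, numpy 2.4.6, pandas 2.3.3, scipy 1.17.1 and matplotlib 3.10.9 were used.

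Members, gene lists and tests were chosen with earlier results of these data known. Values are given in full for members past the threshold with SGI-110 and a mean count of at least 10, for members past it with dasatinib, with both drugs against SGI-110 or in the interaction, and for those with no measurable DMSO level that passed with SGI-110; some others are added as examples chosen after their values were seen. Alternatives were a stricter p, another set of genes for the adjustment, a minimum count, centring and a minimum fold. Promoter windows and gene positions are from RefSeq on GRCh38.p14.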

Additional observations from a re-analysis of the deposited data

Results flagged for a closer look

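For 2 genes the effect of dasatinib differed between cultures without and with SGI-110, by the two-sided Wald test of the difference itself, adjusted over all genes. For CDH15 the difference was 0.48 log2 (SE 0.11, adjusted p = 0.00017): dasatinib changed it by -0.50 log2 without SGI-110 and by -0.02 log2 with it. For PCDH7 the difference was 0.44 log2 (SE 0.08, adjusted p = 1.1e-06): dasatinib changed it by 0.25 log2 without and by 0.69 log2 with SGI-110. Over all genes, 6.09% passed in this direction, and the share was 6.67% of the 30 cadherins and protocadherins.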

How the results depend on the processing

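The members past the threshold in a comparison made 68 pairs of a gene and a comparison, 48 with a fold change and 20 with a Wald statistic only. None of these could reverse, so that none did is no test. A stricter p or another adjustment leaves the direction as it is. Centring moved values by less than the smallest of these folds, -0.18 log2 for CDH2 with SGI-110. Marker and pathway genes were not rerun. An adjusted p under 0.01 kept 53 pairs and lost 15. Centring on the median of all genes, which moved values by at most 0.069 log2, kept 66 and lost CDH12 with SGI-110 and PCDH10 with both drugs against DMSO. Adjusting over all genes with a p kept 46 and lost PCDH15 with dasatinib and PCDH19 in both drugs against SGI-110. Adjusting over genes with a mean count of at least 10 kept the 13 pairs it covers. Asking for a mean count of at least 50 left 5 of the 15 genes higher with SGI-110, 7 of the 17 higher with both drugs against DMSO and 5 of the 16 higher with both drugs against dasatinib. Of the 5 with SGI-110, PCDH15 and CDH26 reach that count through the other line. By the limits on its level, CDH26 had at most 36.8 counts per library in the compared line. CDH26 is also among the 7 and the 5 of the other comparisons, and PCDH15 among the 7. The count of 16 was 9 when the adjustment ran over genes with a mean count of at least 10, which leaves out members under it. At an adjusted p under 0.01, 2 of the 4 genes lower with SGI-110 remained. Asking for at least 1 log2 left 0 of 4 lower with SGI-110, 1 of 4 higher (PCDH15, whose DMSO level was not measurable) and 0 of 2 lower with dasatinib, 0 of 3 lower with both drugs against DMSO, 0 of 3 higher with both drugs against SGI-110, 1 of 2 lower with both drugs against dasatinib and 0 of 2 in the interaction. Over members with a mean count of at least 50, the median went from 0.62 to 0.26 log2 with SGI-110 and from -0.02 to 0.04 log2 in both drugs against SGI-110, which turned its sign; the medians of the other comparisons kept theirs. The median promoter CpG density was 3.33 per 100 bases over the whole window and 3.25 over the 200 bases nearest to the start. The minimum count removes members by construction, and for the other changes the cause was not tested. No paired analysis was possible because the tables hold no value per library, and leaving out replicates was not run for the same reason. Unknown depth limits what can be said of the 11 genes with a mean count under 10.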

Other observations

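Members that lie side by side on a chromosome did not share a response throughout. On chromosome 18 CDH7, which fell with SGI-110, lies 4.19 Mb from CDH20 and 0.611 Mb from CDH19, both of which rose. On chromosome 16 CDH8, CDH11, CDH5 and CDH3 follow each other at gaps of 2.91, 1.24 and 2.24 Mb, and all 4 rose, while CDH15 lies 20.4 Mb further and fell. On chromosome 5 CDH18 and CDH12, 1.17 Mb apart, rose, CDH9 did not pass the threshold, and CDH6, 4.16 Mb from CDH9, fell. On chromosome 13 PCDH8 and PCDH17 rose at a gap of 4.78 Mb, and PCDH9, 8.57 Mb further, did not pass. PCDH1 and PCDH12 on chromosome 5 are 0.0652 Mb apart, and only the first passed with SGI-110. The order of members was taken from RefSeq on GRCh38.p14, and genes that lie between them were not looked at.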
